A study of Mus musculus with 15 samples.

Results

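The Notch receptors, ligands and targets described here are 10 genes taken by name out of the 17454 genes in the expression table. No measured value entered the rule, but earlier results of these data were known when it was set. They are the ligand genes Dll1, Dll4, Jag1 and Jag2, the receptor genes Notch1, Notch2, Notch3 and Notch4, and the target genes Hes1 and Hey1. The table comes from RNA sequencing of erythro-myeloid progenitors (EMPs) sorted from the yolk sac (YS) of C57BL/6 mouse embryos at E10.5. In all 15 libraries the embryos carried the floxed Ezh2 allele on both chromosomes (Ezh2fl/fl), the controls included. The 5 Tie2-Ezh2-KO libraries carried Tie2-CreTg/+, a Cre transgene driven by the Tie2 promoter, which is active from the endothelium onward, so the deletion can reach the endothelial cells that give rise to EMPs as well as EMPs themselves. The 5 Vav-Ezh2-KO libraries carried Vav-CreTg/+, driven by the Vav promoter, which is active in blood cells after they have formed. The controls had no Cre transgene, 3 of the Tie2 line (Tie2-Ezh2-WT, labelled Tie2-Cre+/+) and 2 of the Vav line (Vav-Ezh2-WT, labelled Vav-Cre+/+), and these 5 libraries are called WT. They served both knockout groups, so the comparisons of each knockout with WT share them.

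Notch receptors are transmembrane proteins that are activated by ligands of the Delta-like and Jagged families on neighbouring cells. Ligand binding lets proteases of the ADAM family and then the gamma-secretase complex cut the receptor, and the freed intracellular domain joins the DNA-binding protein RBPJ and MAML coactivators to switch on genes such as the Hes and Hey repressors. In embryonic blood formation the pathway is known for its part in arterial endothelium and in the emergence of haematopoietic stem cells, and EMPs of the yolk sac are known to form with less need for it.

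Levels are given as RPKM, the reads of a gene divided by its exon length and by the size of the library, so that levels can be compared between genes. Reads assigned to genes ran from 10407398 to 41025074 per library with a median of 16091836. Each library is 1 YS, and values are listed in the order Tie2-Ezh2-WT replicates 4, 10 and 12, Vav-Ezh2-WT replicates 4 and 6, the Tie2-Ezh2-KO libraries numbered 7, 9, 11, 13 and 17, and the Vav-Ezh2-KO libraries numbered 1, 9, 10, 26 and 28. Means are followed by the SD over the 5 libraries of a group. Differences are on the log2 scale, computed as log2 of RPKM plus 0.2, and were tested with limma over the genes that exceeded 0.2 RPKM in 1 or more of the compared libraries, with a gene called at an adjusted p under 0.05. The exact permutation test of a single gene compares its mean log2 level with every way of dividing 10 libraries into 5 and 5, and the smallest p it can give is 0.00794.

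The gate took cells negative for lineage markers and SCA1 and positive for KIT and for the products of Itga2b and the Fcgr genes, and the study's list of sorting antibodies includes TER119, a marker of red cells, and F4/80, a marker of macrophages. The sorted cells expressed the genes of the positive markers. All 9 EMP genes found in the table, of 10 symbols listed, were above 0 in every library, with Kit between 15.2 and 45.9 RPKM, Itga2b between 16.7 and 41.7 RPKM and Fcgr3 between 66.9 and 194 RPKM. The symbol not found, Spi1, names the same gene as Sfpi1, which is among the 9. The targeted gene, Ezh2, stood at 36.9, 39.5, 30.1, 42.0 and 41.5 RPKM in WT, at 27.8, 26.2, 24.8, 29.5 and 26.5 RPKM in Tie2-Ezh2-KO and at 33.8, 42.5, 37.8, 38.1 and 34.0 RPKM in Vav-Ezh2-KO. Every Tie2-Ezh2-KO library lay below every WT and every Vav-Ezh2-KO library, while Vav-Ezh2-KO and WT overlapped. In limma Ezh2 fell by 0.48 on the log2 scale in Tie2-Ezh2-KO against WT (adjusted p = 0.0418) and by 0.46 against Vav-Ezh2-KO (adjusted p = 0.0269), and the difference of Vav-Ezh2-KO from WT was -0.023 (adjusted p = 0.969). These levels count reads over the whole gene, whereas Cre removes only the exons for the SET domain, so they do not check the deletion in either knockout. The paper made that check by quantitative PCR, and reports that EMPs of both knockouts lost expression of the deleted exon.

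Some libraries stood apart in markers of other cell types. The 9 visceral endoderm markers summed to 150.5 RPKM in Tie2-Ezh2-WT replicate 4 and to 224.5 RPKM in Tie2-Ezh2-KO replicate 7, against 1.72 to 12.7 RPKM in the other 13 libraries. Sums of the 3 primitive erythroid globin genes ran from 65.2 to 142 RPKM in WT, from 192 to 855 RPKM in Tie2-Ezh2-KO and from 59.9 to 155 RPKM in Vav-Ezh2-KO, so the Tie2-Ezh2-KO libraries were all above the others. Whether these cell types carry any part of the values below was not tested. In bulk RNA, fewer cells of a type and less RNA per cell cannot be told apart.

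Among all genes limma called 386 of 14154 in Tie2-Ezh2-KO against WT, 343 of them higher and 43 lower. For Vav-Ezh2-KO against WT it called 1 of 13646, which was higher. Between Tie2-Ezh2-KO and Vav-Ezh2-KO it called 495 of 14120, with 372 higher in Tie2-Ezh2-KO and 123 lower.

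The Notch genes were tested against this background with a filter that not all of them passed. In Tie2-Ezh2-KO against WT, 8 of the 10 members passed it and 0 were called by limma, where 2.73% of all tested genes were called. At an unadjusted p under 0.05 in limma there were 4 of the 8 (Jag1, Jag2, Hes1 and Hey1), where 11% of all tested genes fell under it. All 4 were higher in Tie2-Ezh2-KO, as were 1163 of the tested genes, against 389 that were lower. In Vav-Ezh2-KO against WT, 6 of the 10 passed the filter and 0 were called by limma, where 0.00733% of all tested genes were called. There 0 of the 6 had an unadjusted p under 0.05 in limma, where 7.93% of all tested genes did, 546 higher and 536 lower. In Tie2-Ezh2-KO against Vav-Ezh2-KO, 7 of the 10 passed and 0 were called by limma, where 3.51% of all tested genes were called. Here 4 of the 7 (Jag1, Jag2, Hes1 and Hey1) had an unadjusted p under 0.05, all higher in Tie2-Ezh2-KO, where 16.6% of all tested genes fell under it, 1488 higher and 854 lower. This comparison and that of Tie2-Ezh2-KO with WT share the 5 Tie2-Ezh2-KO libraries, so the names in common are not independent. Limma-voom on the recovered read counts also called 0 members in each of the 3 comparisons.

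These shares cannot be read as support for a change of the members as a set. In Tie2-Ezh2-KO against WT, Dll4 and Jag1 passed the filter only through Tie2-Ezh2-KO libraries and Dll1 only through a WT library. In Tie2-Ezh2-KO against Vav-Ezh2-KO, Dll4, Jag1, Jag2 and Hey1 passed only through Tie2-Ezh2-KO. Notch3 and Notch4 were above 0.2 RPKM in no library and were not tested by limma, and Dll4 and Jag1 did not reach the filter in Vav-Ezh2-KO against WT. The 2 groups did not overlap in Tie2-Ezh2-KO against WT for 0 of the 8 tested members, where 3.29% of all tested genes had every Tie2-Ezh2-KO library above every WT library. In Tie2-Ezh2-KO against Vav-Ezh2-KO this held for 1 of the 7, Jag2, where it held for 3.56% of all tested genes.

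Of the ligand genes, Dll1 and Dll4 were listed at 0 in most libraries, and Jag1 and Jag2 were low. Dll1, on chr17:15367354-15376872 of GRCm38, encodes a Delta-like ligand that acts between neighbouring cells in many embryonic tissues. It was listed at 0.252 RPKM in Tie2-Ezh2-WT replicate 4 and at 0 in the other 14 libraries. Dll4, on chr2:119325784-119335962, encodes the Delta-like ligand known from arterial endothelium. It was listed at 0.236 RPKM, or 13 reads, in Tie2-Ezh2-KO replicate 7 and at 0.114 RPKM, or 6 reads, in Tie2-Ezh2-KO replicate 9, and at 0 in the other 13 libraries, where 3 reads would have been between 0.0212 and 0.0835 RPKM. The library with Dll1 and the library with the most Dll4 were those with the high visceral endoderm sums. Neither gene's limma difference is a fold change that can be read, because the opposite group was listed at 0.

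Jag1, on chr2:137081456-137116644, encodes a Jagged ligand that is active in vessels and in many epithelia. In WT it was at 0.0700, 0.0921, 0.0754, 0.0244 and 0.0182 RPKM, with a mean of 0.0560 ± 0.0328 (SD, n = 5). In Tie2-Ezh2-KO it was at 0.0457, 0.286, 0.479, 0.333 and 0.0792 RPKM (mean 0.245 ± 0.181), and in Vav-Ezh2-KO at 0.0967, 0, 0.0864, 0.0949 and 0.0254 RPKM (mean 0.0607 ± 0.0449). Tie2-Ezh2-KO replicates 9, 11 and 13 lay above every WT and every Vav-Ezh2-KO library, and replicates 7 and 17 lay among them. Against WT the limma difference was 0.70 (SE 0.31, adjusted p = 0.407), with p = 0.0635 in the exact permutation test. Against Vav-Ezh2-KO the limma difference was 0.68 (SE 0.32, adjusted p = 0.293), with p = 0.0794 in the exact permutation test. Both sizes followed the scale, from 0.23 with a pseudocount of 1 to 1.83 in limma-voom against WT, and from 0.22 to 2.20 against Vav-Ezh2-KO. Jag1 entered both tests only through 3 Tie2-Ezh2-KO libraries, and with no filter the adjusted p in limma was 0.339 and 0.263.

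Jag2, on chr12:112907819-112929776, encodes the other Jagged ligand. WT libraries were at 0, 0.0624, 0.0661, 0.315 and 0.371 RPKM, which gave a mean of 0.163 ± 0.168 (SD, n = 5). The Tie2-Ezh2-KO libraries were at 0.232, 0.436, 0.366, 0.855 and 1.46 RPKM (mean 0.669 ± 0.498), and the Vav-Ezh2-KO libraries at 0.140, 0.147, 0, 0.0858 and 0.198 RPKM (mean 0.114 ± 0.0751). The read counts behind them were 0, 4, 11, 19 and 30 in WT, 15, 27, 22, 93 and 95 in Tie2-Ezh2-KO, and 16, 11, 0, 4 and 23 in Vav-Ezh2-KO. Every Tie2-Ezh2-KO library was above every Vav-Ezh2-KO library, whereas the WT controls split by line: both Vav-Ezh2-WT libraries lay inside the Tie2-Ezh2-KO range and the 3 Tie2-Ezh2-WT libraries lay below it. Against Vav-Ezh2-KO the limma difference was 1.33 (SE 0.37, adjusted p = 0.0599), higher in 5 of 5 libraries, and the exact permutation test gave p = 0.00794, the smallest it can give. Against WT the limma difference was 1.21 (SE 0.41, adjusted p = 0.184), with 3 of 5 libraries above all WT and p = 0.0476 in the exact permutation test. Between Vav-Ezh2-KO and WT the limma difference was -0.12 (adjusted p = 0.946).

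Jag2 was above 0.2 RPKM in all 5 Tie2-Ezh2-KO and 0 of 5 Vav-Ezh2-KO libraries, so it entered this test only through the group where it is high, and with no filter the adjusted p in limma was 0.0835. The side of the threshold on which Jag2 fell in Tie2-Ezh2-KO against Vav-Ezh2-KO depended on the setting. In limma it was called with array weights (adjusted p = 0.0350), in 1 fit of all 15 libraries (0.0268), without Tie2-Ezh2-KO replicate 7 (0.0410) and without Tie2-Ezh2-KO replicate 9 (0.0465), within a range of 0.0268 to 0.141 over all alternatives. Its size also followed the scale, at 0.54 with a pseudocount of 1, 2.05 with a pseudocount of 0.05 and 2.76 in limma-voom. With each knockout set against the controls of its own line, the difference between the knockouts' limma differences was 2.50 (SE 0.58, adjusted p = 0.114). That value joins 1.68 (adjusted p = 0.112) for Tie2-Ezh2-KO against the 3 Tie2-Ezh2-WT libraries and -0.83 (adjusted p = 0.862) for Vav-Ezh2-KO against the 2 Vav-Ezh2-WT libraries.

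**Figure D1:**
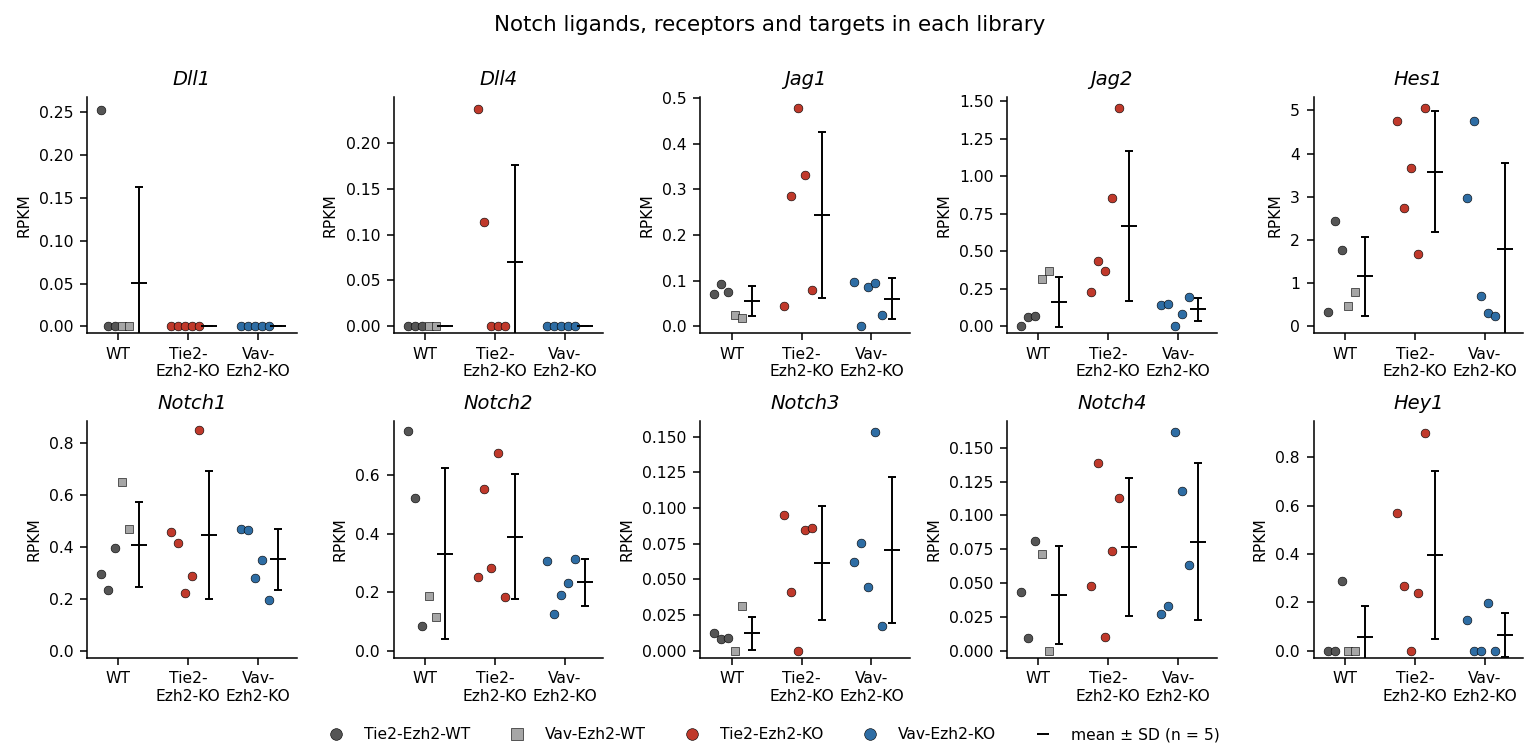
Level in RPKM (vertical axis) of each of the 10 Notch genes in each library, by group. Points are libraries, horizontal marks are group means and vertical bars are the SD. Hes1 reached 5.05 RPKM in Tie2-Ezh2-KO replicate 17, and Jag2 was higher in all 5 Tie2-Ezh2-KO libraries than in any Vav-Ezh2-KO library.

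Receptor genes were low and overlapped between groups. Notch1, on chr2:26457903-26516663, encodes the receptor most studied in blood formation, and it was the most abundant receptor gene. WT libraries had 0.294, 0.233, 0.396, 0.651 and 0.470 RPKM, those of Tie2-Ezh2-KO had 0.456, 0.414, 0.221, 0.287 and 0.851 RPKM, and those of Vav-Ezh2-KO had 0.470, 0.464, 0.281, 0.348 and 0.195 RPKM. The 3 groups overlapped over most of their span, with means of 0.409 ± 0.163, 0.446 ± 0.246 and 0.351 ± 0.118 RPKM (SD, n = 5). Its limma differences were 0.051 in Tie2-Ezh2-KO against WT (adjusted p = 0.986), where quantile normalization turned the sign (-0.20), and -0.13 in Vav-Ezh2-KO against WT (adjusted p = 0.924). Between the knockouts it was 0.18 (adjusted p = 0.822), which quantile normalization also turned (-0.048). The 3 Tie2-Ezh2-WT libraries lay below both Vav-Ezh2-WT libraries, and the differences followed the controls used. With controls of its own line alone Tie2-Ezh2-KO differed by 0.29 and Vav-Ezh2-KO by -0.48, and the interaction over the lines gave 0.77.

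Notch2, on chr3:98013527-98150361, encodes a receptor with broad expression. WT libraries showed 0.750, 0.524, 0.0835, 0.185 and 0.115 RPKM, Tie2-Ezh2-KO libraries 0.251, 0.554, 0.283, 0.678 and 0.183 RPKM and Vav-Ezh2-KO libraries 0.307, 0.124, 0.192, 0.232 and 0.315 RPKM. The WT libraries held both the highest and the lowest values, so both knockouts lay inside the WT range, around means of 0.331 ± 0.292, 0.390 ± 0.214 and 0.234 ± 0.0801 RPKM. Its limma difference was 0.24 in Tie2-Ezh2-KO against WT (adjusted p = 0.930), with the sign turned by quantile normalization (-0.024) and with the Tie2-Ezh2-WT controls alone (-0.049). Limma-voom gave larger differences, at 0.99 in this comparison and 0.65 between the knockouts. Against WT the difference of Vav-Ezh2-KO was -0.14 (adjusted p = 0.936), which limma-voom (0.37) and the Vav-Ezh2-WT controls alone (0.30) turned. Between the knockouts it was 0.39 (adjusted p = 0.575), which became -0.35 with each knockout against the controls of its own line.

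Notch3, on chr17:32120820-32166852, encodes the receptor known from the smooth muscle and pericytes around vessels, and no library exceeded 0.153 RPKM. WT libraries were at 0.0121, 0.00796, 0.00921, 0 and 0.0315 RPKM, Tie2-Ezh2-KO libraries at 0.0948, 0.0412, 0, 0.0845 and 0.0861 RPKM and Vav-Ezh2-KO libraries at 0.0624, 0.0752, 0.0448, 0.153 and 0.0175 RPKM. These levels rest on 1, 1, 3, 0 and 5 reads in WT, 12, 5, 0, 18 and 11 in Tie2-Ezh2-KO and 14, 11, 6, 14 and 4 in Vav-Ezh2-KO, so most WT libraries were at or below 3 reads. In each knockout 4 of 5 libraries were above every WT library, and the knockouts overlapped each other. In the exact permutation test p was 0.0159 for Vav-Ezh2-KO against WT, 0.0635 for Tie2-Ezh2-KO against WT and 0.786 between the knockouts. With no filter limma tested Notch3 too, and the adjusted p was 0.647, 0.406 and 0.920 in the same order. Notch4, on chr17:34564268-34588503, encodes a receptor of endothelium and ranged from 0 to 0.0812 RPKM in WT, from 0.0102 to 0.139 RPKM in Tie2-Ezh2-KO and from 0.0268 to 0.162 RPKM in Vav-Ezh2-KO. Its groups overlapped, with p of 0.246, 0.230 and 0.929 in the exact permutation test for Tie2-Ezh2-KO against WT, Vav-Ezh2-KO against WT and Tie2-Ezh2-KO against Vav-Ezh2-KO.

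Hes1, on chr16:30064384-30067796, encodes a basic helix-loop-helix repressor that Notch signalling induces in many tissues, and it was the most abundant of the 10 genes. WT libraries were at 0.331, 2.44, 1.78, 0.463 and 0.794 RPKM, with a mean of 1.16 ± 0.913 (SD, n = 5). Tie2-Ezh2-KO libraries were at 4.76, 2.75, 3.67, 1.67 and 5.05 RPKM (mean 3.58 ± 1.41) and Vav-Ezh2-KO libraries at 2.98, 4.75, 0.695, 0.299 and 0.240 RPKM (mean 1.79 ± 2.0). All Tie2-Ezh2-KO libraries but replicate 13 were above every WT library, while Vav-Ezh2-KO split into replicates 1 and 9, inside the Tie2-Ezh2-KO range, and replicates 10, 26 and 28, which were below 1 RPKM. Reads behind the low values were few, with 5, 10 and 23 in Tie2-Ezh2-WT replicate 4 and the Vav-Ezh2-WT libraries against 61 to 118 in Tie2-Ezh2-KO.

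Against WT the limma difference of Hes1 in Tie2-Ezh2-KO was 1.65 (SE 0.44, p = 0.00216, adjusted p = 0.0681), with 4 of 5 libraries above all WT, and the exact permutation test gave p = 0.0238. Limma called Hes1 with array weights (adjusted p = 0.0489), without Tie2-Ezh2-KO replicate 13 (0.0434) and without Tie2-Ezh2-WT replicate 10 (0.0270), within a range of 0.0270 to 0.374 over all alternatives. Without the libraries with the high visceral endoderm sums, a choice made after the data were seen, the limma difference was 1.26 (adjusted p = 0.296). Against Vav-Ezh2-KO it was 1.5 (SE 0.60, adjusted p = 0.207), with 2 of 5 libraries above all Vav-Ezh2-KO and p = 0.103 in the exact permutation test. With each knockout against the controls of its own line the difference was 0.71 (SE 1.08, adjusted p = 0.990), in a range of 0.0617 to 0.990 over all alternatives. For Vav-Ezh2-KO against WT it was 0.15 (SE 0.66, adjusted p = 0.969), and limma-voom gave the opposite sign (-0.088). Leaving out Vav-Ezh2-KO replicate 1 (-0.18) or 9 (-0.34), Tie2-Ezh2-WT replicate 4 (-0.12) or Vav-Ezh2-WT replicate 4 (-0.041) turned it too.

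Hey1, on chr3:8663359-8667256, encodes a related repressor that is known as a Notch target in arterial endothelium. It was at 0.287 RPKM in Tie2-Ezh2-WT replicate 12 and at 0 in the other 4 WT libraries. Tie2-Ezh2-KO libraries were at 0.569, 0.267, 0, 0.237 and 0.902 RPKM and Vav-Ezh2-KO libraries at 0.129, 0, 0, 0.197 and 0 RPKM. Hey1 was thus detected in 1 of 5 WT, 4 of 5 Tie2-Ezh2-KO and 2 of 5 Vav-Ezh2-KO libraries, and the 3 groups overlapped. In limma the difference of Tie2-Ezh2-KO was 1.09 from WT (SE 0.43, adjusted p = 0.294) and 1.01 from Vav-Ezh2-KO (SE 0.41, adjusted p = 0.218), with p of 0.127 and 0.0635 in the exact permutation test. The size followed the scale, from 0.37 with a pseudocount of 1 to 2.80 in limma-voom against WT, and from 0.36 to 2.87 against Vav-Ezh2-KO. Hey1 entered the test against Vav-Ezh2-KO only through Tie2-Ezh2-KO, and with no filter the adjusted p in limma there was 0.266. Vav-Ezh2-KO and WT differed by 0.084 (adjusted p = 0.965).

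Ranked by mean RPKM over the 15 libraries, the order was Hes1 (2.18), Notch1 (0.402), Notch2 (0.318), Jag2 (0.315), Hey1 (0.172), Jag1 (0.120), Notch4 (0.0661), Notch3 (0.0480), Dll4 (0.0233) and Dll1 (0.0168). The order differed by group, with Jag2 at rank 2 and Hey1 at rank 4 in Tie2-Ezh2-KO, Hey1 at rank 7 below Notch4 and Notch3 in Vav-Ezh2-KO, and Dll1 above Notch4 in WT. Within each group neighbours in the order overlapped between libraries, except that every Tie2-Ezh2-KO library had more Hes1 than any had Jag2, the gene next in that group. The mean level of Hes1 was above 49.7% of the genes detected in any library and that of Notch1 above 33.8%, so the other 8 members lay lower still.

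Some reads of these genes could belong to overlapping genes, because the strand used in counting is not stated. In GENCODE M21 an antisense gene overlaps 867 exon bases of Dll1, 214 of Dll4 and 488 of Notch3, and 2 antisense genes overlap 1068 and 414 exon bases of Notch1. A gene on the same strand overlaps 541 exon bases of Notch2. The study counted reads on RefSeq gene models, and of these overlapping genes only Gm14207, at Dll4, is in the expression table.

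Among the genes whose levels ran most like those of Hes1 were Depdc7 and Socs2. Likeness was the root mean square difference of centred log2 levels over the 15 libraries among 9885 genes, which was 0.85 for both Depdc7 and Socs2, while Hes1 itself varied by 1.26 about its mean. Depdc7 had mean levels of 4.68, 10.3 and 5.28 RPKM in the WT group, the Tie2-Ezh2-KO group and the Vav-Ezh2-KO group, and Socs2 had 2.08, 4.62 and 2.6 RPKM. In both genes the mean of Tie2-Ezh2-KO was the highest and the other groups lay close together.

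The wider pathway list held 68 genes, 66 of them in the table, from receptors and ligands through the enzymes that glycosylate and cut the receptors to the nuclear complex and its targets. In Tie2-Ezh2-KO against WT limma called 0 of the 60 tested, with 9 higher and 0 lower at an unadjusted p under 0.05 (11% of all tested genes were under it), and 31 lay above 0 and 29 below. The median log2 difference of the list was 0.015, and that of all tested genes was 0.011, and both turned negative with quantile normalization (-0.061 and -0.025). In Vav-Ezh2-KO against WT limma and limma-voom each called 0 of 56, with 0 higher and 5 lower at an unadjusted p under 0.05 in limma (7.93% of all tested genes), and a median of -0.038 against -0.015 for all genes (-0.0019 and 0.0234 with a common median). Limma-voom on read counts called 1 gene of the list, Nrarp, in Tie2-Ezh2-KO against WT. In Tie2-Ezh2-KO against Vav-Ezh2-KO limma called 2 of 59, Dlk1 and Nrarp, both higher in Tie2-Ezh2-KO, with 13 higher and 3 lower at an unadjusted p under 0.05 (16.6% of all tested genes) and a median of 0.055 against 0.041 for all genes (0.0084 and -0.0135 with quantile normalization). Those 2 of 59 are no larger a share than the 3.51% called among all tested genes, so the count is not a result about the list. It depended on the setting, with 7 called without Tie2-Ezh2-KO replicate 9, where 969 of all genes were called, and 4 with array weights, where 765 were.

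**Figure D2:**
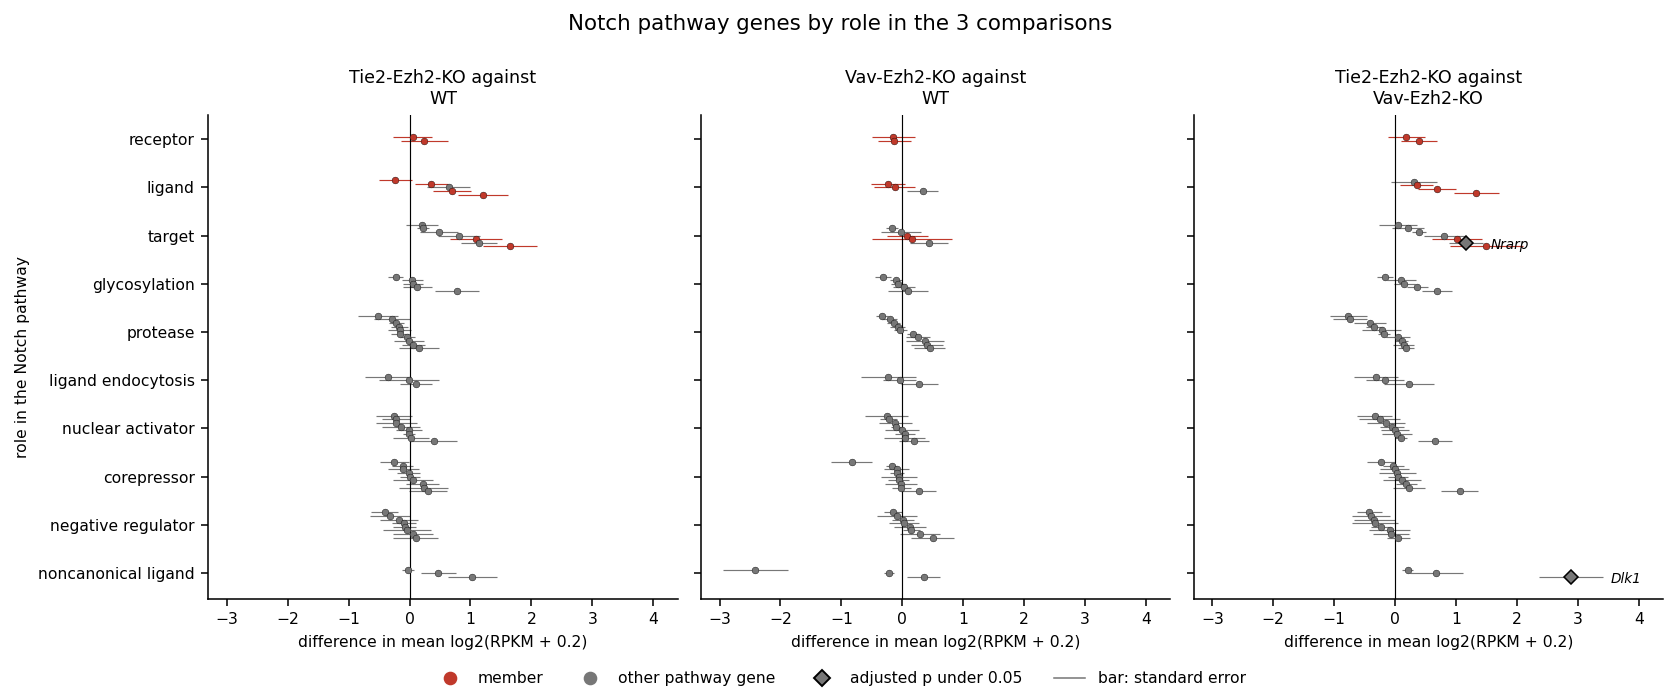
Limma log2 difference (horizontal axis) of each tested gene of the Notch pathway list in the 3 comparisons, sorted by role. Differences lie on both sides of 0 in most roles, and only Dlk1 and Nrarp in Tie2-Ezh2-KO against Vav-Ezh2-KO had an adjusted p under 0.05.

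By role, 9 of 11 listed targets were in the table and 7 were tested in Tie2-Ezh2-KO against WT. The role lists Hes6, whose protein inhibits HES1, beside Hes1, so listing does not show that Notch induces a gene. Of the 7, 5 had an unadjusted p under 0.05 in limma (Hes1, Hes2, Hes6, Hey1 and Nrarp), all on the higher side. Among all tested genes 11% were under it in either direction. In Tie2-Ezh2-KO against Vav-Ezh2-KO, which uses those same Tie2-Ezh2-KO libraries, limma called 1 of 7, Nrarp, where 3.51% of all tested genes were called, and 5 of 7 had an unadjusted p under 0.05, where 16.6% of all tested genes did. Hes2 and Hes5, named after their values were seen, were listed at 0 in every WT and Vav-Ezh2-KO library and passed the filter only through Tie2-Ezh2-KO, so they could only lie above 0. Hey1 too passed only through Tie2-Ezh2-KO against Vav-Ezh2-KO, so these counts do not support a change of targets as a group. In Vav-Ezh2-KO against WT 3 of 5 tested targets lay above 0 and 2 below.

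Nrarp, on chr2:25180758-25183339, is a Notch target whose protein limits Notch signalling by acting on the intracellular domain. WT libraries were at 2.35, 1.74, 1.34, 3.36 and 1.07 RPKM (mean 1.98 ± 0.914), Tie2-Ezh2-KO libraries at 4.75, 2.87, 4.19, 5.07 and 5.04 RPKM (mean 4.39 ± 0.917) and Vav-Ezh2-KO libraries at 1.39, 3.4, 1.18, 1.62 and 2.07 RPKM (mean 1.93 ± 0.884; SD, n = 5). All Tie2-Ezh2-KO libraries except replicate 9 were above every library of the other groups, which each held 1 high library, Vav-Ezh2-WT replicate 4 and Vav-Ezh2-KO replicate 9. Against Vav-Ezh2-KO Nrarp was higher by 1.17 in limma (SE 0.28, adjusted p = 0.0323), with 4 of 5 libraries above all Vav-Ezh2-KO and p = 0.0159 in the exact permutation test. Against WT the limma difference was 1.15 (SE 0.29, adjusted p = 0.0543), with p = 0.0159 in the exact permutation test, and between Vav-Ezh2-KO and WT it was -0.019 (adjusted p = 0.993).

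Neither result for Nrarp held its side of the threshold throughout. The call between the knockouts was lost in limma with no filter (adjusted p = 0.0605), with each knockout against the controls of its own line (0.667) and without any 1 of 8 of the 10 libraries (up to 0.0818). Of the fits without 1 library, those without Tie2-Ezh2-KO replicate 9 (0.0136) and without Vav-Ezh2-KO replicate 9 (0.0106) kept it, and so did the other alternatives (0.0128 to 0.0415). The range over all alternatives was 0.0106 to 0.667, while the difference itself lay between 0.91 and 1.38, at 1.17 with no filter and 1.28 in the interaction. Against WT Nrarp was called in limma with quantile normalization (adjusted p = 0.0484), a common median (0.0291), array weights (0.0347), limma-voom (0.0310), without Tie2-Ezh2-KO replicate 9 (0.0296) and without Vav-Ezh2-WT replicate 4 (0.0252), within a range of 0.0252 to 0.148. The antisense gene Gm38287 overlaps 2051 exon bases of Nrarp, and the strand used in counting is not stated, so reads of the 2 genes cannot be told apart.

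Dlk1, on chr12:109452823-109463336, encodes a transmembrane protein related to the Delta ligands that lacks the domain with which they bind Notch. WT libraries were at 11.8, 9.69, 8.32, 5.00 and 15.8 RPKM, with a mean of 10.1 ± 4.03 (SD, n = 5). Tie2-Ezh2-KO libraries were at 15, 20.2, 7.77, 14.6 and 11.7 RPKM (mean 13.8 ± 4.57) and Vav-Ezh2-KO libraries at 1.47, 0.135, 2.69, 3.12 and 3.49 RPKM (mean 2.18 ± 1.37). Every Vav-Ezh2-KO library was below every other library, and WT and Tie2-Ezh2-KO overlapped. Dlk1 was higher in Tie2-Ezh2-KO than in Vav-Ezh2-KO by 2.88 in limma (SE 0.53, adjusted p = 0.00611), in 5 of 5 libraries, with p = 0.00794 in the exact permutation test. Against WT the limma difference of Vav-Ezh2-KO was -2.41 (SE 0.54, p = 0.000497), below WT in 5 of 5 libraries with p = 0.00794 in the exact permutation test, but it missed the threshold over all genes (adjusted p = 0.434). How many of all tested genes had no overlap in that comparison is not given here, so the lack of overlap cannot be set against a background. Tie2-Ezh2-KO against WT gave 0.47 (adjusted p = 0.671). The call between the knockouts was kept without any 1 library and lost with each knockout against the controls of its own line (adjusted p = 0.415), within a range of 0.000880 to 0.415 over all alternatives. The difference itself was 2.74 in that interaction and between 2.27 and 3.19 over all alternatives.

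**Figure D3:**
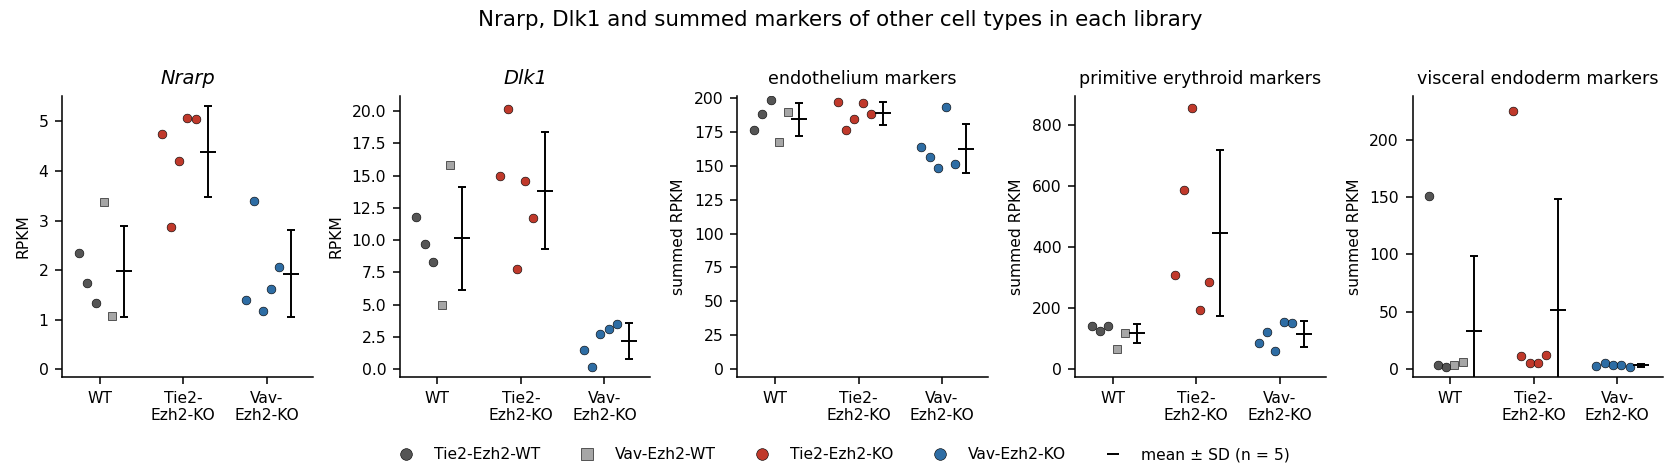
Level in RPKM (vertical axes) of Nrarp and Dlk1 and summed levels of other-cell-type markers in each library, by group. Points are libraries, horizontal marks are group means and vertical bars are the SD. Dlk1 lay between 0.135 and 3.49 RPKM in Vav-Ezh2-KO, below all other libraries, and the visceral endoderm sum was 224.5 RPKM in Tie2-Ezh2-KO replicate 7.

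Other genes of the pathway had higher mean levels than any of the ligand and receptor genes. Hes6, a Hes protein that inhibits HES1, had a mean of 142 ± 20.8 RPKM over the 15 libraries, against 2.18 RPKM for Hes1. Among the enzymes that glycosylate the receptors, Mfng was at 51.0 RPKM, Poglut1 at 25.1 RPKM and Rfng at 22.0 RPKM. The gamma-secretase genes Psenen and Ncstn were at 111 and 58.1 RPKM, and the ADAM protease gene Adam10 was at 24.1 RPKM. Rbpj, whose product carries the intracellular domain to DNA, was at 11.1 ± 2.50 RPKM. The ubiquitin ligase gene Mib1, which acts in cells that send the signal, was at 1.08 RPKM, and the inhibitor gene Numb at 7.12 RPKM. The group levels of Hes6 were 139 RPKM in WT, 163 RPKM in Tie2-Ezh2-KO and 125 RPKM in Vav-Ezh2-KO, and its limma differences of Tie2-Ezh2-KO were 0.22 from WT (adjusted p = 0.349) and 0.39 from Vav-Ezh2-KO (adjusted p = 0.0651).

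Endothelium is another cell type in which many Notch genes are expressed, and its markers differed widely in level. Cdh5 reached at most 0.349 RPKM and Cldn5 at most 0.351 RPKM in any library, whereas Pecam1 had a mean of 16.7 RPKM over the 15 libraries, Esam 12.1 RPKM, Eng 8.24 RPKM, Tek 7.56 RPKM and Plvap 6.00 RPKM. The 15 endothelial markers in the table summed to 167 to 199 RPKM in WT, 177 to 197 RPKM in Tie2-Ezh2-KO and 149 to 193 RPKM in Vav-Ezh2-KO, and Egfl7, which is not confined to endothelium, was the most abundant in every library at 98.4 to 139 RPKM. Of the 15, limma called 0 in each comparison. At an unadjusted p under 0.05 limma gave 2 higher and 1 lower in Tie2-Ezh2-KO against WT, 0 higher and 2 lower in Vav-Ezh2-KO against WT, and 7 higher and 1 lower in Tie2-Ezh2-KO against Vav-Ezh2-KO, where the shares of all tested genes in either direction were 11%, 7.93% and 16.6%. The median log2 difference of these markers was 0.33 (0.15 with quantile normalization), -0.22 and 0.43 in the same order. In the last of these comparisons 12 lay above 0 and 3 below, and the 1 lower was Pecam1 (-0.72, limma adjusted p = 0.123). Pecam1 was also the 1 lower in Tie2-Ezh2-KO against WT (-0.62, limma adjusted p = 0.150). The median in the last comparison has the direction of Jag2, Nrarp and Dlk1, although not all markers share it. The part of endothelium in the levels of those genes was not tested. For arterial endothelium the summed levels were 0.720 to 1.73 RPKM in WT, 1.42 to 2.16 RPKM in Tie2-Ezh2-KO and 0.954 to 3.11 RPKM in Vav-Ezh2-KO, with Gja5 at 0 in 14 of 15 libraries.

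Markers of other cell types also differed between the groups. Of 3 globin genes limma called 2 higher in Tie2-Ezh2-KO against WT and 2 against Vav-Ezh2-KO, and Hbb-bh1 was the most abundant in most libraries, between 57.6 and 508 RPKM. Of 7 tested visceral endoderm markers limma called 1, Amn, higher in both comparisons, at 3.01 on the log2 scale against WT and 3.42 against Vav-Ezh2-KO. Without the 2 libraries with the high visceral endoderm sums, limma called 217 genes in Tie2-Ezh2-KO against WT, and the differences were 1.23 for Jag2 (adjusted p = 0.255), 0.91 for Jag1 (0.309), 0.88 for Hey1 (0.637) and 1.19 for Nrarp (0.148). Mesenchyme markers summed to at most 2.92 RPKM in any library, with Pdgfra at 0 in 14 of 15. Macrophage markers summed to 8.16 to 27.8 RPKM with C1qa at 0 in all 15, where limma called Cd68 lower in Tie2-Ezh2-KO than in Vav-Ezh2-KO (-0.71). Megakaryocyte markers summed to 128 to 338 RPKM, and limma called Gp1ba lower in Tie2-Ezh2-KO than in WT (-0.94). Mast cell markers summed to 8.41 to 97.5 RPKM with Mcpt8 at 0 in all 15, and Cpa3 was called lower in Tie2-Ezh2-KO than in Vav-Ezh2-KO (-1.61). Of 3 tested mast cell markers 2 lay above 0 in that comparison, with a median of 0.23. With no filter limma no longer called Cd68 (adjusted p = 0.0513), Gp1ba (0.0802) or Cpa3 (0.0637), at unchanged differences. The same held for the globin gene Hbb-bh1 (0.114 against WT and 0.0832 against Vav-Ezh2-KO). The part of these cell types in the values of the Notch genes was not tested.

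With 5 libraries in a group, a p that misses the threshold does not show that levels did not differ.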

How the data were processed

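The deposited table holds RPKM values that the authors made from reads aligned to GRCm38 with TopHat2 2.0.13 and assigned to genes with featureCounts, per the submitters' processing notes. It covers 15 libraries of sorted YS EMPs, each from 1 YS, in groups of 5 Tie2-Ezh2-KO, 5 Vav-Ezh2-KO, 3 Tie2-Ezh2-WT and 2 Vav-Ezh2-WT. Cells were amplified as cDNA before sequencing, and the number of cells per library given in the labels differs from that in the study's methods. All 105 pairs of libraries were compared, and no pair shared its values.

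Read counts were recovered from the steps between RPKM values. With a whole-number length for each of the 16877 genes above 0, 100% of values above 0 came out as whole reads within 0.001 reads. For 852 genes, Dll1 among them, the length was set by the GENCODE M21 annotation, so no reads are given for Dll1. Totals ran from 10407398 to 41025074 reads. The floor for an undetected gene is 3 reads. Floors cover counting error only, since amplified reads are not independent molecules.

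Values were analysed as log2 of RPKM plus 0.2. Genes that exceeded 0.2 RPKM in 1 or more of the compared libraries were fitted in limma 3.58.1 under R 4.3.3 with a mean-variance trend, and p was adjusted over all tested genes by the Benjamini-Hochberg method at 0.05. Exact permutation tests, summaries and plots used Python 3.11.15 with numpy 2.4.6, pandas 2.3.3 and matplotlib 3.10.9. The code was tested on simulated data. Each library is a biological replicate. The nearest genes to a member were sought among genes with a mean of at least 1 RPKM.

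The alternatives were pseudocounts of 1 and 0.05, a filter above 1 RPKM in 3 libraries, no filter, quantile normalization, a common median, no trend, array weights, limma-voom on the recovered reads, 1 fit of all 15 libraries, controls of 1 line only, the interaction over the lines, and leaving out each library in turn. Leaving out the libraries with high visceral endoderm sums was added after seeing the data. The members, the pathway list and the marker lists were chosen with earlier results of these data known. Named were the 10 members, pathway genes called in any comparison, otherwise up to 4 genes of each role by mean RPKM, and genes from the 3 nearest to each member with a mean of at least 1 RPKM, and not every gene under this rule is printed. Promoter sequences were left out because none is held for Hes1 or Hey1.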

Additional observations from a re-analysis of the deposited data

Results flagged for a closer look

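For 12 genes (the 10 Notch genes, Nrarp and Dlk1) the highest and lowest library of each group were compared with the rest of the group. A library stood apart when its gap to the next one, as a share of the group's range, was above 0.71, the critical value for 5 samples. Of 32 groups tested 2 did so, and chance alone gives about 1 in 20. In the WT group Dll1 was at 0.252 RPKM in Tie2-Ezh2-WT replicate 4 and at 0 in the rest, a share of 1.0. Hey1 was at 0.287 RPKM in Tie2-Ezh2-WT replicate 12 and at 0 in the other WT libraries, also a share of 1.0. With every other library at 0 this share is 1.0 whatever the value, so both cases follow from the zeros.

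Between the knockouts limma called 2 of the 59 tested genes of the pathway list, no larger a share than the 3.51% called among all tested genes. Dlk1 was higher in Tie2-Ezh2-KO than in Vav-Ezh2-KO by 2.88 on the log2 scale (adjusted p = 0.00611). Nrarp was higher by 1.17 (adjusted p = 0.0323).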

How the results depend on the processing

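The alternatives changed 1 choice at a time, except that limma-voom changes the input, the scale and the weights together and the interaction changes both the controls and the libraries in the fit. The causes of the shifts below were not tested. Among results under the alternatives other than leaving out 1 library, 263 of 285 kept their direction and their side of the threshold, 7 passed it, 3 no longer did and 12 changed sign. Counts outside 1.5 times the reported one are given below in full.

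In Tie2-Ezh2-KO against WT limma called 187 genes with the Tie2-Ezh2-WT controls only, and 217 without Tie2-Ezh2-KO replicate 7 and Tie2-Ezh2-WT replicate 4, an alternative chosen after seeing the data. For Vav-Ezh2-KO against WT it called 0 with limma-voom and 2 with the Vav-Ezh2-WT controls only. Between the knockouts it called 765 with array weights and 26 as an interaction over the lines. Without 1 library the counts were 262 to 438, 1 to 2 and 320 to 969 in the 3 comparisons, with 969 without Tie2-Ezh2-KO replicate 9 and 320 without Vav-Ezh2-KO replicate 28.

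Among the 10 members limma called 1 (Hes1) in Tie2-Ezh2-KO against WT with array weights, where 533 of all genes were called. Between the knockouts it called 1 (Jag2) with array weights, where 765 of all genes were called, and 1 in the fit of all 15 libraries. Without 1 library 0 to 1 were called in these comparisons and 0 in Vav-Ezh2-KO against WT. The exact permutation test had a p under 0.05 for 2 members in Tie2-Ezh2-KO against WT, which became 1 with quantile normalization, 1 with the Tie2-Ezh2-WT controls only, 0 without both libraries named above and 1 to 3 without 1 library. For Vav-Ezh2-KO against WT it was 1 member, and 0 with the Vav-Ezh2-WT controls only. Between the knockouts it was 1, and 2 with quantile normalization and 1 to 2 without 1 library. The share of all genes under this p is not given here, so these counts are not a result about the members. Of the pathway list limma called 1 in Tie2-Ezh2-KO against WT with quantile normalization, a common median or limma-voom, 2 with array weights, and 0 to 1 without 1 library. Between the knockouts the list gave 1 with no filter, 4 with array weights, 4 in the fit of all 15 libraries, 0 as an interaction and 1 to 7 without 1 library, with 7 without Tie2-Ezh2-KO replicate 9.

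Signs turned for small log2 differences in limma. In Tie2-Ezh2-KO against WT, Notch1 was -0.20 and Notch2 -0.024 with quantile normalization, Notch2 was -0.049 with the Tie2-Ezh2-WT controls only and Notch1 was -0.039 without both libraries named above. In Vav-Ezh2-KO against WT, limma-voom gave 0.37 for Notch2, -0.088 for Hes1, -0.12 for Hey1 and 0.11 for Nrarp, the Vav-Ezh2-WT controls gave 0.30 for Notch2 and a common median gave 0.0195 for Nrarp. Between the knockouts Notch1 was -0.048 with quantile normalization and Notch2 -0.35 as an interaction. Leaving out 1 library gave -0.14 to 0.19 for Notch1 in Tie2-Ezh2-KO against WT and -0.013 to 0.32 between the knockouts. For Vav-Ezh2-KO against WT it gave -0.24 to 0.00090 for Notch1, -0.33 to 0.11 for Notch2, -0.31 to 0.071 for Jag2, -0.34 to 0.53 for Hes1, -0.078 to 0.17 for Hey1 and -0.23 to 0.18 for Nrarp. Of 265 results without 1 library 230 kept their direction and side of the threshold, 6 passed it, 8 no longer did and 21 changed sign.

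No paired analysis was made, because the labels give no litter or experiment for any library and a replicate number does not mark a pair. The paper states that the libraries came from several independent experiments. The labels do not say which library came from which experiment, so a difference between experiments was not tested. Depth limits the low genes most, since in the shallowest library 3 reads of Dll4 would have been 0.0835 RPKM.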

Other observations

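A few other genes of the pathway list, named here after their values were seen, had an unadjusted p under 0.05 in limma without passing the threshold over all genes. Lfng, which encodes a glycosyltransferase that modifies the receptors, had means of 2.34 ± 1.41 RPKM in WT, 3.79 ± 1.12 RPKM in Tie2-Ezh2-KO and 2.20 ± 0.312 RPKM in Vav-Ezh2-KO (SD, n = 5). Its log2 difference of Tie2-Ezh2-KO was 0.79 from WT (adjusted p = 0.439) and 0.69 from Vav-Ezh2-KO (adjusted p = 0.146) in limma. Psen2, which encodes a catalytic subunit of gamma-secretase, had 24.1 ± 2.22 RPKM in WT and 19.0 ± 0.969 RPKM in Vav-Ezh2-KO, with all 5 knockout libraries below all WT libraries. Between these lay the Tie2-Ezh2-KO mean, at 21.7 ± 3.62 RPKM. The limma difference of Vav-Ezh2-KO from WT was -0.34 (adjusted p = 0.542), and the exact permutation test gave p = 0.00794. As Psen2 was picked after its values were seen, that p does not support a change. How many of all tested genes had no overlap in this comparison is not given here.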
